A study of Homo sapiens with 4 samples.

Results

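Amino acids enter cells through membrane carriers, and 10 genes for amino acid transporters of the plasma membrane are described here in the 786-O clear cell renal carcinoma line with and without restored VHL. They were chosen by gene symbol (SLC3A2, SLC7A5, SLC7A11, SLC7A6, SLC7A1, SLC1A5, SLC1A4, SLC38A2, SLC38A1 and SLC6A9), and all 10 were found among the 12912 genes of the count table. 786-O cells carry a frameshift mutation in VHL and lack the functional protein. The 786-O-VHL subline carries a retroviral pBabe-puro vector for HA-tagged wild-type VHL, and 786-O-Ctrl is its comparison subline. Both are named in the labels as triple-reporter (TR) cells, which also express GFP, luciferase and thymidine kinase, and both grew in RPMI1640 with fetal bovine serum. RNA-seq was performed on 2 libraries of each subline. Every library of a group comes from a single subline and nothing states that the libraries are separate cultures, so the p-values measure only the spread between these libraries, which may be technical.

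Several of these carriers work as pairs. SLC3A2, the CD98 heavy chain, is a glycoprotein that brings SLC7 light chains to the cell surface, and the light chain decides what is carried: SLC7A5 (LAT1) exchanges large neutral amino acids such as leucine, SLC7A11 (xCT) takes up cystine in exchange for glutamate, and SLC7A6 exchanges cationic for neutral amino acids. SLC1A5 (ASCT2), SLC38A1 and SLC38A2 carry glutamine with other small neutral amino acids, and SLC1A4 (ASCT1) carries alanine, serine and cysteine. SLC7A1 takes up arginine and lysine, and SLC6A9 takes up glycine. Renal tubule cells reabsorb amino acids from the filtrate through a related set of carriers, and the transcription factor ATF4 induces many amino acid transporter genes when amino acids are short.

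Library totals were 22141263 and 15714166 deposited counts for 786-O-Ctrl, whose libraries are called the deeper and the shallower here, and 2807779 and 16114120 for replicates 1 and 2 of 786-O-VHL. A level is given in CPM, the count relative to the library total after TMM scaling, and the values of a gene follow in this order of libraries. A count of 0 allows up to 3 counts, or 0.142, 0.199, 1.02 and 0.178 CPM, and such limits cover counting error only. A log2 fold change is 786-O-VHL over 786-O-Ctrl, with the standard error (SE) implied by edgeR's F statistic, and a gene passed the test at an FDR under 0.05 over 12335 genes tested.

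VHL, the restored gene, measured 42.9 and 43.9 CPM in 786-O-Ctrl against 178 and 163 CPM in 786-O-VHL. Both 786-O-VHL libraries lay above both others, as the labels say, with a log2 fold change of 1.96 ± 0.0706 (SE, n = 2 per group). Reads from the vector and from the gene cannot be told apart in these counts. Of 8 renal epithelial markers, all 8 were listed, 5 were lower in 786-O-VHL and 1 was higher, where 31.9% and 32.6% of all genes tested were, with summed levels of 3550, 3535, 2311 and 2197 CPM. The most abundant was VIM, also a filament gene of mesenchymal cells, whose levels of 1669, 1699, 751 and 709 CPM made up most of the difference in the sum. PAX8, a transcription factor of the renal lineage, was present at 277, 272, 166 and 137 CPM. The higher marker was CDH6, at 219, 215, 366 and 251 CPM. Among 11 markers of leukocytes, endothelial cells and fibroblasts, 3 were listed, with summed levels of 7.50, 6.05, 8.48 and 7.07 CPM that came mostly from COL1A1, and the other 8 were not analysed here. The part of the renal markers' difference in the results that follow was not tested.

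The 10 genes did not move in a single direction. SLC38A2, SLC1A5, SLC3A2, SLC7A11 and SLC38A1 rose, with log2 fold changes between 0.58 and 1.06. SLC6A9, SLC7A6, SLC1A4 and SLC7A5 fell, with log2 fold changes between -1.56 and -0.15, although the call of SLC7A5 was lost in 5 of 12 alternatives. SLC7A1 did not pass the test. In all, 9 of the 10 passed at FDR < 0.05 in edgeR's quasi-likelihood test, where 64.5% of all genes tested passed. The 5 higher genes stand beside 32.6% of all genes and the 4 lower genes beside 31.9%. With library totals alone as the scaling, the split of all genes moved from 4017 higher and 3939 lower to 5077 higher and 3097 lower, and the log2 fold change of the median gene shifted by 0.13. Libraries of the groups did not overlap for 9 of the 10 genes and for 80.0% of all genes. None of the 10 passed a fold change over 4 with FDR < 0.01, a threshold passed by 4.46% of genes. The median log2 fold change of the 10 was 0.25, beside 0.017 over all genes tested.

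**Figure D1:**
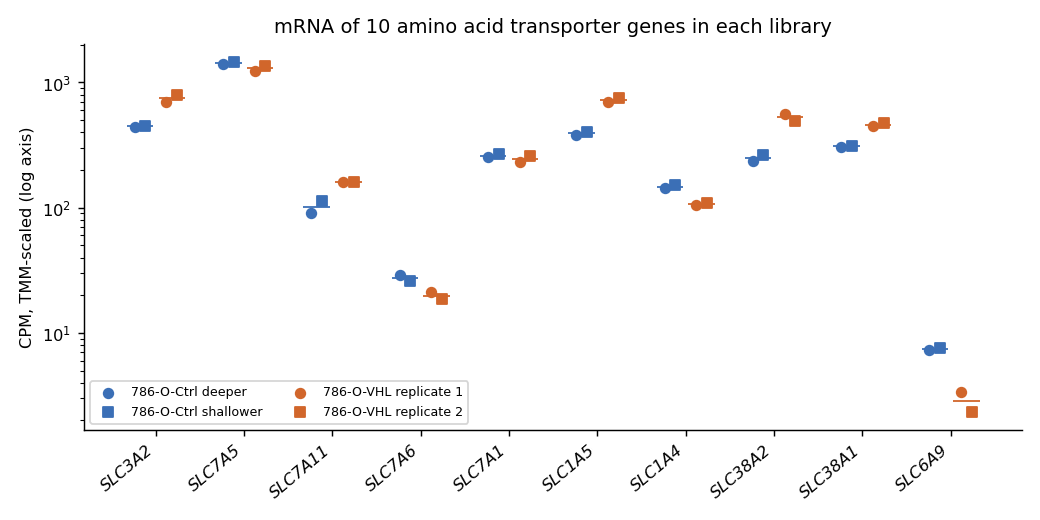
Level of each of the 10 transporter mRNAs in each library, in CPM on a log axis; circles and squares are single libraries (blue, 786-O-Ctrl; orange, 786-O-VHL) and lines are group means. The libraries of the groups overlap for SLC7A1 alone, at 254 and 268 CPM against 230 and 260 CPM.

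Promoter windows of these genes were read for short response elements. RefSeq windows (GRCh38.p14) of 300 bases, from 250 before to 50 after a start site, matched 9 of the 10 genes in 15 windows, and SLC7A11 had none. TGATGNAAN, the composite C/EBP-ATF letters of amino acid response elements, was found on either strand in 5 windows of 5 genes, and in 3.61% of all 35116 windows. The matches are shown with the motif in capitals and up to 10 bases on each side, 5′ to 3′ on the strand that carries the letters, which is the minus strand of GRCh37 in each case.
SLC3A2: ggagcTGATGTAAGgagtcctgca
SLC1A5: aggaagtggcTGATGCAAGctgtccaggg
SLC1A4: cggctggagaTGATGCAAAcgggagccgc
SLC38A1: cagacccgaaTGATGAAAAgggatcagct
SLC7A1: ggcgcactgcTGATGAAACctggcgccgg
In GRCh37 the SLC3A2 stretch lies at chr11:62649197-62649220, in a coding exon of at least 1 transcript. The SLC1A5 stretch lies at chr19:47288150-47288178 and the SLC1A4 stretch at chr2:65216515-65216543, and both motifs are in noncoding parts of exons. The SLC38A1 stretch at chr12:46660285-46660313 is in an intron, and the SLC7A1 motif, within chr13:30169800-30169828, is in a noncoding part of an exon. Genes with these letters therefore include 3 that rose, 1 that fell and 1 that did not pass the test, and SLC38A2, which rose most of the 10, had no match in its single window. A match of letters is a description and not a site.

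Further letters searched are common among promoters. CACGTG, an E-box that also contains ACGTG, was found in windows of SLC1A5 and SLC7A5 and in 7.26% of all windows.
SLC1A5: cgggagtggtCACGTGgacaggacgg
SLC7A5: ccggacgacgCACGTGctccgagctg
The SLC1A5 E-box stretch lies at chr19:47290585-47290610 in a noncoding part of an exon, and that of SLC7A5 at chr16:87903228-87903253, upstream of the annotated gene, both on the minus strand. The hypoxia response core was searched as ACGTG, found in 5 of the 15 windows (21.4% of all windows), and as GCGTG, found in 10 (36.5%). TGACNNNGC, the core of antioxidant response elements, was found in 5 windows (13.3%).

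SLC3A2 (ENSG00000168003.16, chr11:62623476-62656352, plus strand, GRCh37) measured 440, 450, 697 and 794 CPM, or 445 ± 7.39 in 786-O-Ctrl against 746 ± 68.3 in 786-O-VHL (SD, n = 2). Both 786-O-VHL libraries were above both 786-O-Ctrl libraries. The log2 fold change of this heavy chain was 0.75 ± 0.0645 (edgeR FDR 4.19e-11). SLC7A11 (ENSG00000151012.13, chr4:139085251-139163503, minus strand) measured 90.1, 113, 160 and 161 CPM. The 786-O-VHL libraries lay close together and above the 786-O-Ctrl libraries, which were further apart from each other. Its mean was 102 ± 16.4 CPM in 786-O-Ctrl against 161 ± 0.913 CPM in 786-O-VHL, which is a log2 fold change of 0.67 ± 0.0793 (edgeR FDR 2.49e-08). Exons of SLC7A11-AS1 overlap SLC7A11 on the opposite strand, and since the use of strand in counting is not given in the sources used here, their reads cannot be told apart.

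SLC7A5 (ENSG00000103257.9, chr16:87863629-87903113, minus strand) was the most abundant of the 10, at 1417, 1470, 1236 and 1366 CPM. Its 786-O-VHL libraries were below its 786-O-Ctrl libraries, but the gap between the groups was smaller than the distance between the 786-O-VHL libraries. The mean was 1443 ± 37.6 CPM in 786-O-Ctrl against 1301 ± 91.6 CPM in 786-O-VHL, which is a log2 fold change of -0.15 with a 95% interval from -0.27 to -0.020 (edgeR FDR 0.0397). This call was lost with library totals alone (-0.011), after thinning to the shallowest library (-0.14), and without the deeper 786-O-Ctrl library (-0.18), the shallower 786-O-Ctrl library (-0.13) or 786-O-VHL replicate 1 (-0.080). A gene on the opposite strand overlaps its exons, and SLC7A5P1 and SLC7A5P2, annotated near-identical copies that the table does not list, could share its reads.

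SLC7A6 (ENSG00000103064.15, chr16:68298419-68335726, plus strand), a light chain of lower abundance, measured 29.0, 26.1, 21.0 and 18.7 CPM. The groups did not overlap, at 27.6 ± 2.05 CPM in 786-O-Ctrl against 19.9 ± 1.64 CPM in 786-O-VHL. Its log2 fold change was -0.53 ± 0.120 (edgeR FDR 0.000382), and it no longer passed without 786-O-VHL replicate 2 (-0.40, FDR 0.0883). SLC7A6OS overlaps its exons on the opposite strand, so that this value is uncertain where counting ignored strand.

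The heavy chain SLC3A2 was compared with its light chains. Per kilobase (kb) of exon, the scale on which different genes are compared here, the summed level of the light chains SLC7A5, SLC7A6, SLC7A7, SLC7A8 and SLC7A11 per level of SLC3A2 was 4.54 and 4.63 in 786-O-Ctrl against 2.64 and 2.51 in 786-O-VHL. Both 786-O-VHL libraries had the lower ratio, by a log2 difference of -0.83 (two-sided exact permutation p = 0.333, the smallest that 2 libraries against 2 allow). SLC7A5 made up most of the sum and on its own stood at 4.32, 4.38, 2.38 and 2.31 per SLC3A2. The size of these ratios depends on the length used: with the longest transcript of each gene, SLC7A5 per SLC3A2 was 2.01, 2.04, 1.11 and 1.07, and the summed ratio 2.12, 2.16, 1.25 and 1.19. SLC7A11 per SLC3A2 was 0.136, 0.167, 0.152 and 0.135, and here the groups overlapped (log2 difference -0.072, exact permutation p = 0.667). With the longest transcripts it was 0.0604, 0.0742, 0.0677 and 0.0599. Without the shallower 786-O-Ctrl library the log2 difference of this ratio was 0.076, and without 786-O-VHL replicate 2 it was 0.015. In all, 5 such ratios were computed, and with mRNA alone they say nothing of how many complexes formed.

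**Figure D2:**
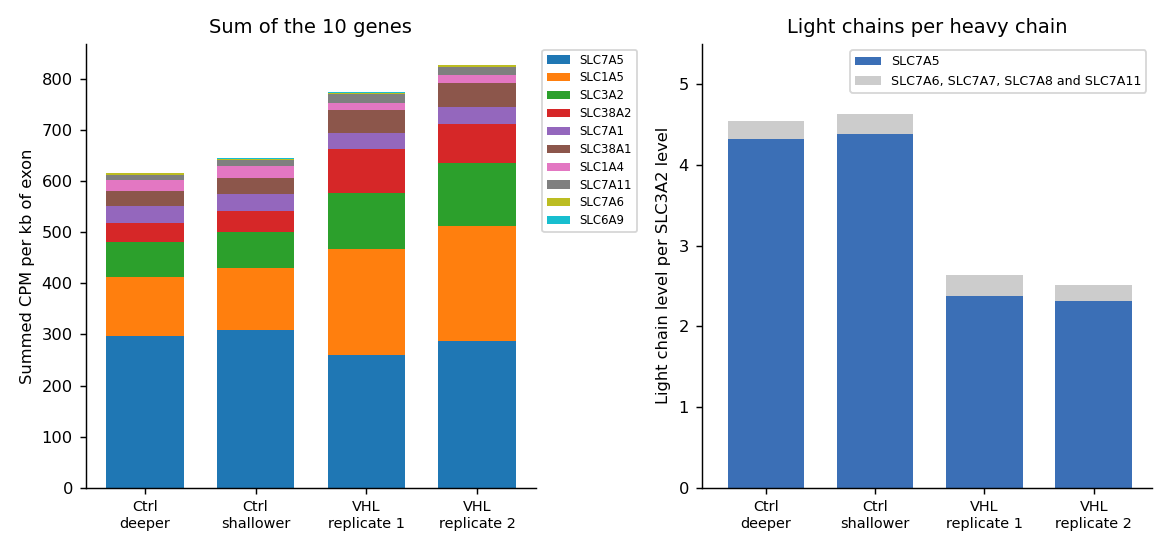
Left, summed level of the 10 mRNAs in each library in CPM per kb of exon, stacked by gene; right, level of SLC7A5 (blue) and of the other light chains (grey) per level of SLC3A2. The sum was 617 and 646 in 786-O-Ctrl against 774 and 827 in 786-O-VHL, and SLC7A5 per SLC3A2 was 4.32 and 4.38 against 2.38 and 2.31.

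SLC1A5 (ENSG00000105281.12, chr19:47278140-47291851, minus strand), the glutamine exchanger, measured 384, 405, 694 and 750 CPM. Both 786-O-VHL libraries were far above both 786-O-Ctrl libraries, with means of 395 ± 15.2 and 722 ± 39.0 CPM (786-O-Ctrl and 786-O-VHL). The log2 fold change was 0.88 ± 0.0623 (edgeR FDR 8.28e-13). An annotated gene overlaps its exons on the opposite strand. SLC1A4 (ENSG00000115902.11, chr2:65215611-65250999, plus strand), its closest relative among the 10, measured 143, 151, 106 and 110 CPM. It went the other way, with both 786-O-VHL libraries below both others. Its means were 147 ± 6.09 and 108 ± 2.59 CPM, a log2 fold change of -0.44 ± 0.0668 (edgeR FDR 1.75e-06). Per kb of exon, SLC1A5 stood at 5.60 and 5.57 times the level of SLC1A4 in 786-O-Ctrl and at 13.7 and 14.3 times in 786-O-VHL (exact permutation p = 0.333).

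SLC38A2 (ENSG00000134294.14, chr12:46751971-46766556, minus strand), a sodium-coupled carrier known to be induced when amino acids are short, measured 236, 264, 564 and 489 CPM. The groups were well apart, at 250 ± 19.5 CPM in 786-O-Ctrl against 527 ± 53.0 CPM in 786-O-VHL. Of the 10 genes it rose most, by a log2 fold change of 1.06 ± 0.0703 (edgeR FDR 1.71e-13), and 83.6% of all genes tested had a smaller absolute change. SLC38A1 (ENSG00000111371.15, chr12:46576846-46663800, minus strand), its neighbor on chromosome 12, measured 307, 313, 453 and 470 CPM. Replicates of SLC38A1 lay close together and the groups did not overlap. Its log2 fold change was 0.58 ± 0.0610 (edgeR FDR 2.65e-09), and no annotated gene overlaps the exons of SLC38A1 or SLC38A2.

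SLC7A1 (ENSG00000139514.13, chr13:30083551-30169825, minus strand), the carrier of arginine and lysine, measured 254, 268, 230 and 260 CPM. The groups overlapped, since 786-O-VHL replicate 2 lay between the 786-O-Ctrl libraries. Its log2 fold change was -0.072 with a 95% interval from -0.21 to 0.06 (edgeR FDR 0.352), which was 0.062 with library totals alone and passed the test without 786-O-VHL replicate 2 (-0.19, FDR 0.0248).

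SLC6A9 (ENSG00000196517.11, chr1:44457172-44497139, minus strand), the glycine carrier, was the least abundant, with 153, 114, 10 and 39 counts or 7.27, 7.58, 3.39 and 2.32 CPM. Both 786-O-VHL libraries were below both 786-O-Ctrl libraries. SLC6A9 had a log2 fold change of -1.56 ± 0.259 (edgeR FDR 6.85e-06), with a mean of 7.42 ± 0.220 CPM in 786-O-Ctrl against 2.85 ± 0.761 CPM in 786-O-VHL. This change was -1.13 on the log2 scale when 786-O-VHL replicate 2 was left out. The 10 counts in 786-O-VHL replicate 1 limit the precision, and CCDC24 overlaps the exons of SLC6A9 on the opposite strand.

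**Figure D3:**
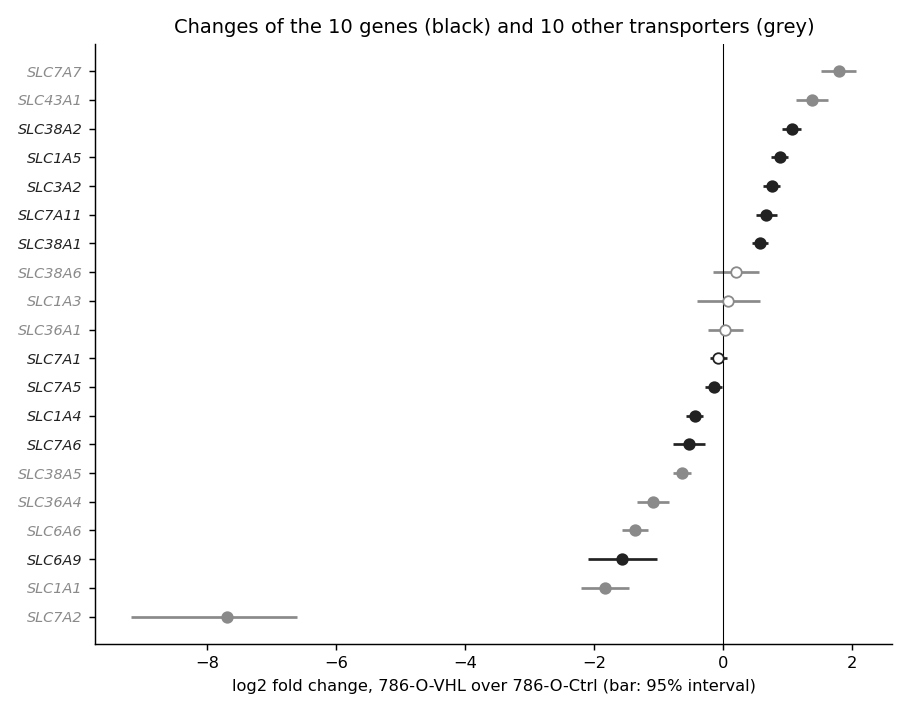
Log2 fold change (786-O-VHL over 786-O-Ctrl) of the 10 genes in black and of 10 other amino acid transporters in grey, with 95% intervals from the edgeR fit (for SLC7A2, the exact counting interval); open circles did not pass FDR < 0.05. SLC38A2 at 1.06 and SLC6A9 at -1.56 are the highest and lowest of the 10; the direction of SLC7A1 flips with library totals alone.

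The order of the levels per kb of exon was nearly the same in both sublines. In 786-O-Ctrl it ran from SLC7A5 at 303 CPM per kb, a level above 99.4% of all genes, through SLC1A5 (118), SLC3A2 (69.6), SLC38A2 (38.4), SLC7A1 (33.9), SLC38A1 (30.9), SLC1A4 (21.2), SLC7A11 (10.6) and SLC7A6 (3.63) to SLC6A9 (1.41). Replicate spread was smaller than each of these steps, and each library alone gave the same order as its group. In 786-O-VHL, SLC7A5 stood at 273 CPM per kb, SLC1A5 at 217, SLC3A2 at 117 and SLC38A2 at 80.9. Places were exchanged by SLC38A1 and SLC7A1 (46.1 and 31.8 CPM per kb) and by SLC7A11 and SLC1A4 (16.7 and 15.5 CPM per kb). Neither pair exchanged places between the sublines when the longest transcript was used as the length. With the longest transcript as the length, 6 of the 10 kept their rank in each subline, so that steps between neighbors depend on the length used.

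The makeup of the pool shifted with these changes. SLC7A5 held 48.2% and 47.8% of the summed level of the 10 in 786-O-Ctrl against 33.5% and 34.7% in 786-O-VHL. SLC1A5 held 18.7%, 18.8%, 26.9% and 27.2%. SLC38A2 held 5.88%, 6.27%, 11.2% and 9.09%. In each of these shares the groups did not overlap, and SLC7A5 kept the largest share in all 4 libraries. These shares rest on exon lengths too.

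**Figure D4:**
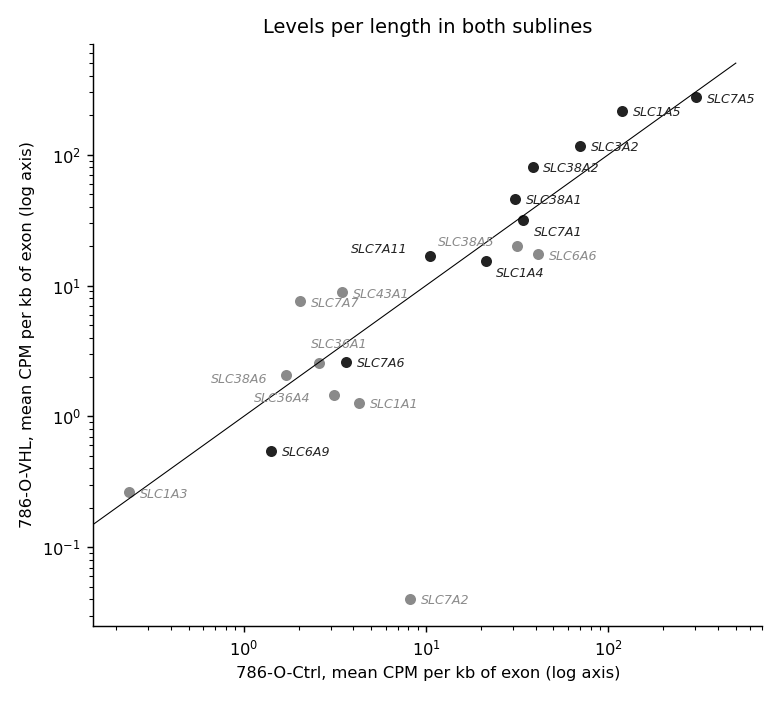
Mean level of the 10 genes (black) and 10 other tested amino acid transporters (grey) in 786-O-VHL against 786-O-Ctrl, in CPM per kb of exon on log axes; the line marks equal levels. SLC7A5 is at 303 and 273, and SLC7A2 lies far below the line.

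Other amino acid transporters of the plasma membrane made up a small part of the summed level. Of 36 searched, 13 were listed and 10 tested, and the other 23 were not analysed here. The 10 genes described above made up 86.2% and 86.7% of the summed level of all listed transporters in 786-O-Ctrl against 92.2% and 93.5% in 786-O-VHL. Of the 10 others tested, 2 were higher, 5 were lower and 3 did not pass, so that 70.0% passed, beside 64.5% of all genes. Their median log2 fold change was -0.30, which ranged from -0.64 without a filter to 0.041 with at least 10 counts in every library.

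The cationic carrier SLC7A2 (ENSG00000003989.17, chr8:17354597-17428082, plus strand) had the lowest log2 fold change of all genes tested. It had 1315 and 1000 counts in 786-O-Ctrl against 1 and 5 counts in 786-O-VHL. Its pooled level was 211 times as high in 786-O-Ctrl, with an exact 95% interval from 97.0 to 577 that covers counting error only. SLC7A7, a light chain of the same exchange type as SLC7A6, measured 10.4, 11.6, 46.5 and 34.6 CPM. It rose by a log2 fold change of 1.79 ± 0.134 (edgeR FDR 2.33e-12) while SLC7A6 fell, and per kb of exon SLC7A7 per SLC7A6 went from 0.507 and 0.626 in 786-O-Ctrl to 3.12 and 2.62 in 786-O-VHL (exact permutation p = 0.333). The neutral carrier SLC43A1 measured 12.3, 12.2, 29.9 and 32.6 CPM, again without overlap (log2 fold change 1.38).

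The lower genes of this list carry different substrates. SLC1A1, a glutamate and aspartate carrier of the renal tubule, measured 17.4, 16.8, 5.43 and 4.69 CPM (log2 fold change -1.83). SLC1A3, another glutamate and aspartate carrier chosen after its values were seen, measured 4.84, 5.12, 6.11 and 5.05 CPM. Its groups overlapped (log2 fold change 0.086, edgeR FDR 0.77), and the change ran from 0.023 to 0.29 with 1 library left out. The taurine carrier SLC6A6 measured 340, 342, 173 and 113 CPM, with 786-O-VHL replicates further apart from each other than those of 786-O-Ctrl (log2 fold change -1.36). SLC36A4 (-1.09) and the glutamine and glycine carrier SLC38A5 (-0.63) were lower as well. The groups did not overlap for SLC1A1, SLC6A6, SLC36A4 or SLC38A5, and the calls of these 4 genes held in all 12 alternatives run.

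Genes of the amino acid response, the program that runs through the kinase GCN2 (EIF2AK4) and ATF4, were listed beside the transporters. The reason was that several of the 10 are known ATF4 targets. The list also holds EIF2AK4, ATF4 and a further kinase, EIF2AK3, themselves. Of 25 tested, 18 were higher and 4 were lower, with a median log2 fold change of 0.48. This is 88.0% passing, beside 64.5% of all genes (32.6% higher and 31.9% lower). ATF4 mRNA itself measured 483, 500, 499 and 549 CPM, and the groups overlapped (log2 fold change 0.10, edgeR FDR 0.161). It passed the test with library totals alone (0.23) and without 786-O-VHL replicate 1 (0.16), and stood at 0.018 without 786-O-VHL replicate 2. NUPR1, a stress-induced chromatin protein, measured 30.5, 35.0, 322 and 360 CPM (log2 fold change 3.40). DDIT3, the transcription factor CHOP, measured 19.2, 19.3, 95.3 and 104 CPM (log2 fold change 2.40). Both overlap annotated genes on the same strand, which could share their reads. PHGDH, the first enzyme of serine synthesis, passed with only 7, 1, 3 and 19 counts (log2 fold change 2.29). It did not pass in DESeq2 (2.37) or without the shallower 786-O-Ctrl library (1.70), and stood at 3.85 without the deeper 786-O-Ctrl library. PHGDH had no value with at least 10 counts in every library, after thinning or without 786-O-VHL replicate 2. ALDH18A1 (-0.75), EIF2AK3 (-0.61), ATF5 (-0.50) and, named after its value was seen, EIF2AK4 (-0.39) fell, and EIF2AK3 no longer passed without 786-O-VHL replicate 2 (-0.36).

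Further targets of ATF4, chosen after their values were seen, were CHAC1 (1.74), TRIB3 (1.02), ASNS (1.07) and DDIT4 (-0.07, not past the test). ASNS, asparagine synthetase, measured 3.89, 3.85, 5.43 and 8.97 CPM, shares its exons with an annotated gene on the same strand, and did not pass without 786-O-VHL replicate 2 (0.48). DDIT4 measured 552, 619, 565 and 551 CPM, and the groups overlapped.

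SLC7A11 supplies cystine for glutathione, and 19 genes of cystine use, glutathione and NRF2 targets were tested with it. Of these, 9 were higher and 6 lower, and the median log2 fold change of all 19 was 0.35. The share that passed was 78.9%, beside 64.5% of all genes (32.6% higher and 31.9% lower). With library totals alone 11 were higher and 3 lower, and without the deeper 786-O-Ctrl library 7 were higher and 2 lower. CTH and CBS, the enzymes that make cysteine from homocysteine, were among the higher genes. CTH measured 17.7, 20.7, 71.9 and 65.6 CPM (log2 fold change 1.82), and CBS, which overlaps an annotated gene on the same strand, 11.3, 15.7, 30.2 and 33.4 CPM (log2 fold change 1.30). NFE2L2, the gene of NRF2, rose by 0.80 on the log2 scale, and overlaps annotated genes on both strands. Thioredoxin (TXN) fell, from 355 and 346 CPM to 182 and 172 CPM. GCLM (the modifier subunit of the first glutathione enzyme, -0.83) and SRXN1 (-0.48) fell too. SRXN1 also overlaps an annotated gene on the same strand. It lost its call in DESeq2 (-0.51), with library totals alone (-0.34), and without the deeper 786-O-Ctrl library (-0.38) or 786-O-VHL replicate 2 (-0.65).

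Amino acids are also sensed at the lysosome, and of 24 tested genes of lysosomal carriers and amino acid sensing 7 were higher and 5 lower. The 12 that passed stand beside 64.5% of all genes. The median log2 fold change of all 24 was 0.025, which was -0.018 in DESeq2 and -0.093 without 786-O-VHL replicate 2. It was 0.16 with library totals alone and 0.091 without the shallower 786-O-Ctrl library. SLC15A3, a lysosomal carrier of histidine and small peptides, measured 4.89, 5.05, 25.4 and 28.4 CPM (log2 fold change 2.48). RRAGB (1.04), a Rag GTPase, and FNIP1 (0.70), a partner of folliculin, rose. LAMTOR1 (-0.91), which anchors the Ragulator complex, SLC38A10 (-0.83) and SLC15A4 (-0.41) fell. The place of SLC38A10 in this list does not show that its protein is lysosomal. With library totals alone 10 were higher and 3 lower, and without the deeper 786-O-Ctrl library 6 were higher and 3 lower.

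**Figure D5:**
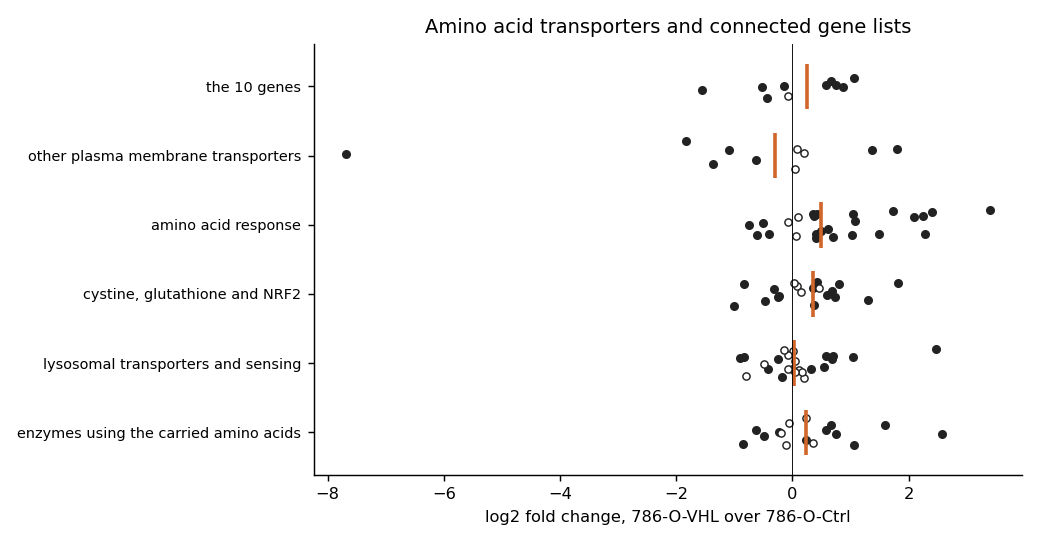
Log2 fold changes (786-O-VHL over 786-O-Ctrl) of every tested gene of the 10 transporters and the 5 connected lists; filled points passed FDR < 0.05, open points did not, orange bars are medians and the vertical scatter within a row has no meaning. The medians are 0.25 for the 10 genes, -0.30 for other transporters and 0.48 for the amino acid response.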

How the data were processed

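The authors isolated RNA in duplicate, sequenced it on an Illumina NovaSeq, mapped reads to hg19 and deposited raw counts per gene. The submitters' processing notes name CASAVA and STAR without a version. How reads were counted, with which annotation and whether by strand, is not given in the sources used here. Both 786-O-Ctrl columns carry the same replicate number and were told apart by depth. Of 12912 Ensembl identifiers, 12749 were found in a GENCODE annotation of GRCh37, which gave coordinates, overlaps and exon lengths.

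Counts were filtered with filterByExpr (minimum count 10; 577 genes removed), scaled by TMM and tested with edgeR 4.0.16 (R 4.3.3) by the quasi-likelihood F test with Benjamini-Hochberg adjustment, with the group as the only term. The procedure was tested on simulated data. Replicates differed by more than sampling noise (chi-square per degree of freedom 2.25 for 786-O-Ctrl, 2.76 for 786-O-VHL), and the biological coefficient of variation was 4.31%. Alternatives were DESeq2 1.42.0, limma-voom (limma 3.58.1), RLE size factors, library totals, no filter, at least 10 counts in every library, thinning, a prior count of 2 and each library left out.

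Named genes are the 10 transporters, VHL, at most 6 other transporters per direction and at most 3 genes per direction of each other list, with the largest absolute log2 fold change among genes past FDR < 0.05 without overlap between groups. Markers and the genes said to be chosen after their values were seen are further exceptions, and some items that the rule names are not reported here. The members and lists were chosen with earlier results of these data known.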

Additional observations from a re-analysis of the deposited data

How the results depend on the processing

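In each of the 12 alternatives 5 of the 10 transporters were higher, and 3 or 4 were lower. Of 49 named genes, 40 kept their direction and side of the threshold in every alternative run, and of 584 values 564 did. Among genes and ratios, reversed directions were those of SLC7A1 (0.062 with library totals alone), DDIT4 (0.064 with library totals alone, and from -0.15 to 0.0089 with 1 library left out, the latter without the shallower 786-O-Ctrl library) and SLC7A11 per SLC3A2 (log2 difference from -0.22 to 0.076 with 1 library left out). The cause was not tested for these or the following. With library totals alone 3 genes were lower in the lysosomal list and 3 in the cystine and glutathione list. With 1 library left out, the lower genes numbered 3 to 5 in the lysosomal list and 2 to 6 in the cystine list. With the longest transcript as the length, 6 of 10 genes kept their rank in each subline, and the exchanges of place between sublines were not seen. Across leave-outs the log2 difference of light chains per heavy chain ran from -0.87 to -0.80. Over all genes, 2861 were higher and 3147 lower in DESeq2, and 2808 in each direction after thinning. List medians that changed sign were those of the other transporters (0.041 with at least 10 counts in every library) and of the lysosomal list (-0.018 in DESeq2 and -0.093 without 786-O-VHL replicate 2). With a library left out, the lone library of its group is assumed to vary like the other group. The total of 786-O-VHL replicate 1 limits the precision for genes with few counts, such as SLC6A9. No paired analysis was possible because the 786-O-Ctrl columns share a single replicate number.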

Other observations

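Enzymes that use the carried amino acids were also read in these libraries. Of 16 tested, 7 were higher and 4 lower in 786-O-VHL. The median log2 fold change of the 16 was 0.24 (0.081 in DESeq2, 0.37 with library totals alone and 0.13 without 786-O-VHL replicate 2). The share that passed was 68.8%, beside 64.5% of all genes. ASS1, which makes argininosuccinate from citrulline on the way to arginine, measured 24.6 and 23.3 CPM in 786-O-Ctrl and 140 and 144 CPM in 786-O-VHL (log2 fold change 2.57). The groups were far apart and no annotated gene overlaps its exons. BCAT1, the cytosolic aminotransferase of the branched-chain amino acids that SLC7A5 carries, measured 143, 155, 310 and 309 CPM (log2 fold change 1.06). GLDC, of the glycine cleavage system, measured 1.85, 1.06, 4.75 and 4.51 CPM (log2 fold change 1.59), from no more than 76 counts in a library.

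Among enzymes that fell were OAT (-0.86) and GOT2 (-0.63), mitochondrial enzymes of ornithine and aspartate metabolism. GLUL, glutamine synthetase, had 4, 1, 0 and 1 counts and was removed by the filter, so it was not tested.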
